A study of Mus musculus with 12 samples.

Results

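The subunits of the mitochondrial respiratory chain and of ATP synthase were followed through 3 culture conditions of Min6 cells, an insulin-secreting line from a mouse insulinoma that serves as a model of the pancreatic beta cell. Members were the genes whose single annotated symbol names a nuclear-encoded subunit of complexes I to V or cytochrome c (Nduf followed by a, b, c, s or v and a digit, Uqcr, Sdha to Sdhd, Cox4 to Cox8, Atp5, Cyc1 and Cycs), without Ndufa4l2 and without symbols marked as pseudogenes. The choice used no measured difference. It gave 82 genes of 19938 with a row of 1 symbol on the array: 34 of complex I, 4 of complex II, 9 of complex III, cytochrome c itself, 17 of complex IV and 17 of complex V. Cox7c, Ndufb4 and Ndufb4b occur only on rows that carry several symbols and were not analysed here.

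All cultures passed through 3 periods of 5 days, and all began in medium with 15% fetal calf serum, mercaptoethanol and antibiotics at 20% oxygen. Under classic conditions (CC) they remained there. Under defined conditions (DC) they spent the last 10 days at 5% oxygen in a serum-free DMEM-F12 medium to which apo-transferrin, progesterone, putrescine and selenite had been added. Return condition (RC) cultures had 5 days of that serum-free culture and then 5 days back in serum at 20% oxygen. Serum, medium, added factors and oxygen changed together, so their effects cannot be told apart. DC and RC also differed in days of serum-free culture, 10 and 5. Each condition had 4 arrays, labelled as quadruplicates of a single experiment, so a p-value here weighs a difference against the variation among these samples only, which may be technical. Values are log2 expression values, 1 per row and array, and differences are differences of log2 means with limma's moderated standard error (SE) over 4 arrays per condition. A row is one probe set, and it was called at an adjusted p under 0.05 over all 35556 rows.

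The respiratory chain passes electrons from NADH and succinate through ubiquinone and cytochrome c to oxygen, and uses the energy released to pump protons out of the mitochondrial matrix. Complexes I and II take electrons in, complex III hands them to cytochrome c, complex IV passes them to oxygen, and complex V, the ATP synthase, makes ATP as protons flow back. In beta cells the ATP made from glucose closes potassium channels in the plasma membrane, which leads to insulin release.

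The upstream sequences of Ndufv3 and Ndufa4, the members with the smallest adjusted p in the first 2 comparisons below, are shown with that of Cycs, which encodes cytochrome c and whose window holds matches to 3 of 4 motifs searched. They are the 250 bases before the RefSeq start, 5′ to 3′ on the gene's strand, build GRCm38.p6: chr17:31519865-31520114 on the plus strand for Ndufv3, chr6:11907451-11907700 on the minus strand for Ndufa4 and chr6:50566570-50566819 on the minus strand for Cycs. Capitals mark motif matches.
Ndufv3: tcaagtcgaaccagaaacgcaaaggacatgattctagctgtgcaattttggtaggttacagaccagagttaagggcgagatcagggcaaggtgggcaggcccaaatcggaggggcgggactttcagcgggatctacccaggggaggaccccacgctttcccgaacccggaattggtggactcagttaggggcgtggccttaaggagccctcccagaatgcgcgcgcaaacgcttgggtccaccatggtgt
Ndufa4: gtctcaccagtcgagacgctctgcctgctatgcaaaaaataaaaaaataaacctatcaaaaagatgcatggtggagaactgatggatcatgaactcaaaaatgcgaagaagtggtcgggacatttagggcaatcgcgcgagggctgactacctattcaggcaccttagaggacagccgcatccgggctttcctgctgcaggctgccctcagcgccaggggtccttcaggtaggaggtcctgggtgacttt
Cycs: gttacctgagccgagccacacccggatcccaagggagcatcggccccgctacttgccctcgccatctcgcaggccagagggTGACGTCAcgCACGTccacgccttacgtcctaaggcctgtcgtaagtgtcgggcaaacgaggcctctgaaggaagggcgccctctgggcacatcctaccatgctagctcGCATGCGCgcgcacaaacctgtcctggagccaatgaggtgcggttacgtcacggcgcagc
The capitals in Cycs are given from left to right. TGACGTCA (the cyclic AMP response element) lies 169 to 162 bases before the start. ACGTG, read on the other strand, lies 159 to 155 bases before the start and is a form of the core bound by hypoxia-inducible factors. GCANGCGC (a core of the nuclear respiratory factor 1 site) lies 60 to 53 bases before the start. Each motif was searched only in the letters given, so other forms of a core were not looked for. No match to these letters lies in the 250 bases shown for Ndufv3 and Ndufa4. That of Ndufv3 to ACGTG lies in the 50 bases after the start.

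Among 72 RefSeq windows (250 bases before to 50 after the start) of 67 members, searched on both strands, GCANGCGC was found in 28 (38.9%), beside 9.61% of all 32851 windows of that length. CCGGAAG, a core of the ETS family site, was found in 17 member windows (23.6%, beside 8.86%). TGACGTCA was found in 5 (6.94%, beside 1.79%), in Cycs, Ndufa10, Ndufa11, Ndufb2 and Uqcrfs1. ACGTG was found in 19 (26.4%, beside 19.6%). Matches to different motifs overlapped in 0 member windows. A match describes letters only.

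The cells carried beta cell transcripts in every condition. Of 10 beta cell markers, 9 had a mean above the median of all values, 7.99, and the exception was Slc2a2. The mean over these markers ranged from 11.56 to 11.80 on the 12 arrays. The acinar and endothelial markers above that median were 0 of 3 and 0 of 4, with 1 of 3 ductal, 3 of 5 fibroblast, 2 of 5 immune and 4 of 4 other islet markers above it. Called markers were 1 of the 10 beta cell markers and 1 of the 4 other islet markers, each in DC against CC and in RC against DC, and 0 of all other lists in the 3 comparisons. In bulk RNA, fewer cells of a kind and less RNA per cell cannot be told apart. One array, RC 3, was unlike its group: it correlated with the remaining RC arrays at a mean of 0.976, beside 0.989 to 0.990 for RC 1, RC 2 and RC 4, and its interquartile range over all rows, 2.42, was the narrowest of the 12. Called counts and named calls that change without it are given below with both values.

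Members sat high on the array. Their row mean over 12 arrays was above the median of all values in 77 of 82, and 60 lay among the brightest rows, the 20% with the highest mean. The remaining 5 were Ndufb2 of complex I and Cox6b2, Cox7b2, Cox8b and Cox8c of complex IV, the last 4 being isoforms known from testis or muscle rather than from most tissues. The 95% interval of the difference lay within 0.5 log2 units of 0 for 75 of 82 members in DC against CC, 69 in RC against DC and 78 in RC against CC, beside 28462, 30363 and 31066 of all 35556 rows.

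**Figure D1:**
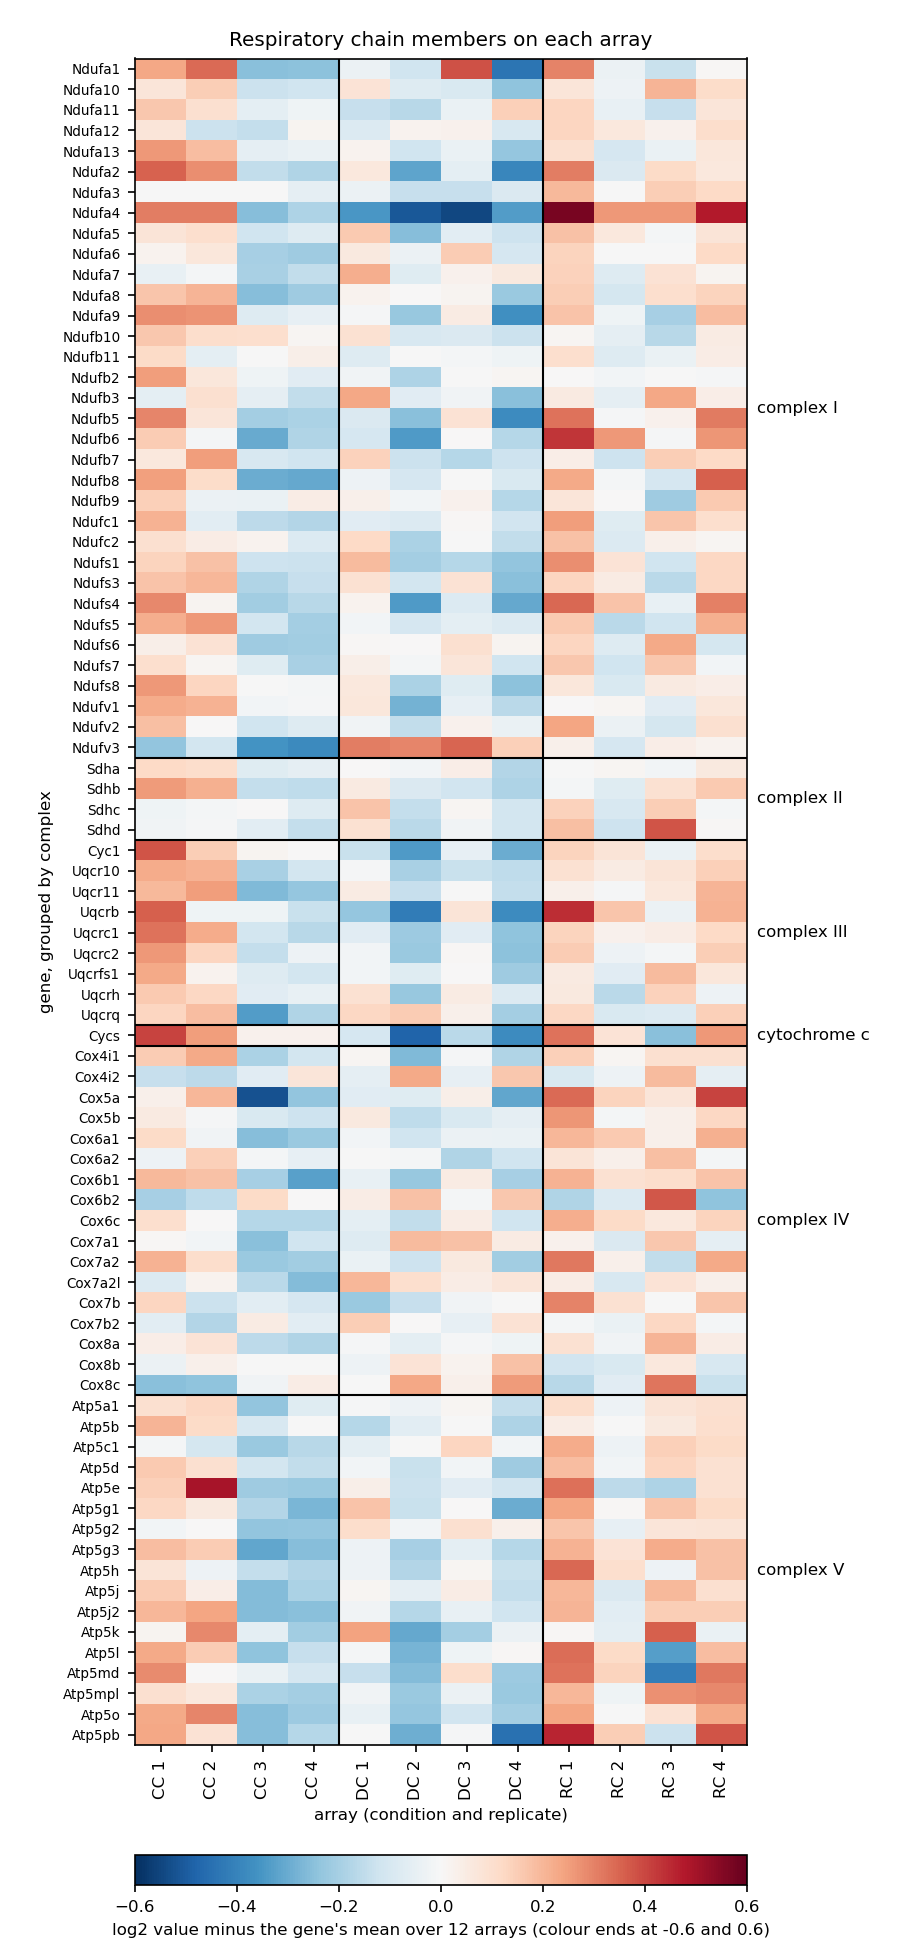
Log2 value of each of the 82 members (rows, grouped by complex) on each of the 12 arrays (columns), minus the gene's mean over the 12 arrays; colour ends at -0.6 and 0.6. CC 1 and CC 2 are high and CC 3 and CC 4 low for most members, while Ndufa4 and Ndufv3 separate the conditions in opposite directions.

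In serum-free culture at 5% oxygen (DC against CC), 2 of 82 members were called: Ndufv3 was higher and Cyc1 lower. Over the whole array 6.64% of rows were called in this comparison. The median difference of the members was -0.066, beside 0.045 over all rows and -0.055 over the brightest rows, among which most members lie. The difference was below 0 in 57 members. This direction was not stable: the median was -0.0036 without CC 1 (39 members above 0) and -0.023 without CC 2, and above 0 with quantile normalization or the interquartile range of each array as a covariate, as given below. Without RC 3 there were 4 called members, with Cycs and Ndufa4 lower as well, and 10.5% of rows were called. At an unadjusted p under 0.05 there were 9 members (3 higher and 6 lower), beside 20.6% of all rows and 31.9% of the brightest rows. The 4 DC arrays did not overlap the 4 CC arrays in 5 members, higher for Ndufv3 and Cox7a2l and lower for Cyc1, Cycs and Ndufa4, while 15.3% of all rows and 23.8% of the brightest rows did not overlap.

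After return to serum and 20% oxygen (RC against DC), 1 member was called, Ndufa4, which was higher in RC; 2.63% of all rows were called. Here the members' differences lay mainly above 0, in 72 of 82 members (87.8%), beside 45.2% of all rows and 58.1% of the brightest rows. Their median was 0.14, beside -0.013 over all rows and 0.030 over the brightest rows. The unadjusted p was under 0.05 in 23 members (28.0%, 22 higher and 1 lower), beside 11.8% of all rows and 21.8% of the brightest rows. The arrays of RC and DC did not overlap in 14 members (17.1%), with RC higher in Ndufa3, Ndufa4, Cyc1, Uqcr10, Uqcrc1, Cox5a, Cox6a1, Cox6b1, Cox6c, Cox7b, Atp5b, Atp5g3 and Atp5o and lower in Ndufv3; 6.29% of all rows and 12.3% of the brightest rows did not overlap. Without RC 3, called members were 8, with Uqcrb, Ndufs4, Ndufb6, Cycs, Atp5pb, Atp5md and Ndufa4 higher and Ndufv3 lower, and rows called were 8.13%, while the members' median was 0.13. Leaving out the 3 arrays with the narrowest interquartile range (RC 3, DC 2 and DC 4), the median was 0.065, with 60 members above 0 and 1 called.

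Between RC and CC, which shared serum and oxygen at harvest, 0 of 82 members were called by limma, and 0.796% of all rows were. The median difference of the members was 0.085, beside 0.034 over all rows and -0.023 over the brightest rows. The unadjusted p was under 0.05 in 11 members (13.4%), all higher in RC, beside 9.06% of all rows and 18.3% of the brightest rows. Ndufa3 and Ndufv3 did not overlap between these groups, both with RC higher, and 7.94% of all rows and 17.3% of the brightest rows did not overlap. The 3 comparisons share arrays, so their values are set side by side and no agreement between them is counted as a result. As a description only, the lowest of the 3 condition means was that of DC in 57 members (69.5%, beside 31.1% of all rows). These are the members with DC below CC, a direction that was not stable. Without CC 1 and CC 2, 60 members lay above 0 in DC against CC. Among the 7112 brightest rows, DC lay below CC in 4385. The highest mean was that of RC in 55 members (67.1%, beside 25.6% of all rows), which also depends on the CC arrays.

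**Figure D2:**
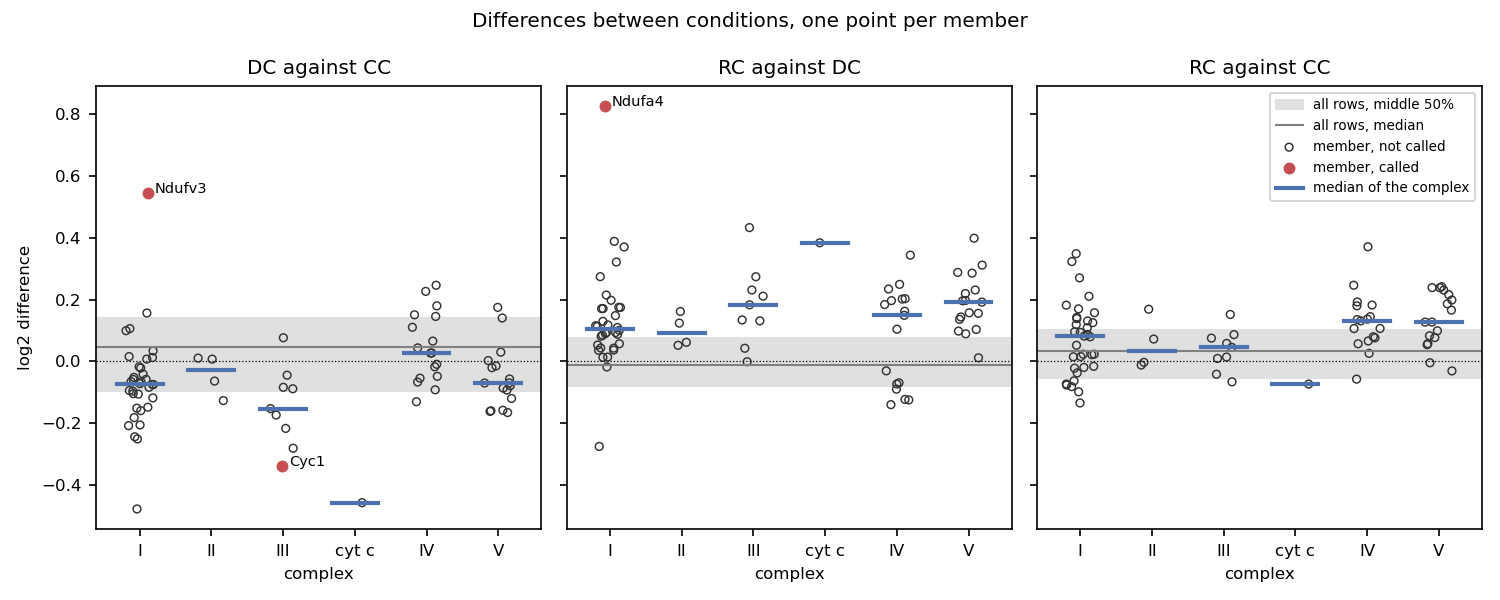
Log2 difference of each member (point) by complex for DC against CC, RC against DC and RC against CC, with the median of each complex (blue line), and the median and middle 50% of all rows (grey). Filled points are the called members Ndufv3, Cyc1 and Ndufa4; in RC against DC all 17 complex V members lie above 0.

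Within a condition most members were high or low on the same arrays. The median deviation of the 82 members from their own 12-array means was 0.15 on CC 1, 0.096 on CC 2, -0.14 on CC 3 and -0.14 on CC 4. It was -0.0062, -0.13, -0.0038 and -0.14 on DC 1 to DC 4, and 0.15, -0.025, 0.064 and 0.11 on RC 1 to RC 4. Over all rows the same median stayed between -0.034 and 0.039. Averaged over the arrays of a condition, the shift of the members was -0.011 ± 0.15 for CC, -0.070 ± 0.076 for DC and 0.073 ± 0.074 for RC (SD, n = 4), so the CC arrays differed among themselves by more than the condition means did.

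Both CC 1 and CC 2 lay above both CC 3 and CC 4 in 69 of 82 members (84.1%), beside 26.8% of all rows and 53.1% of the brightest rows. CC 1 and CC 2 had interquartile ranges over all rows of 2.73 and 2.75, and CC 3 and CC 4 of 2.58 and 2.57. In DC the arrays 1 and 3 lay above arrays 2 and 4 in 56 members (68.3%), beside 22.5% of all rows and 38.7% of the brightest rows; their interquartile ranges were 2.64 and 2.60 against 2.47 and 2.44. Taking each array's interquartile range into the fit, the median difference of the members for DC against CC was 0.048 (53 of 82 above 0), and with quantile normalization, which gives all arrays the same spread, it was 0.0027 (42 above 0). Without CC 1 and CC 2 the median difference of the members for DC against CC was 0.054, and without CC 3 and CC 4 it was -0.19. For RC against CC it was 0.22 and -0.032. The direction of both medians changes with which CC arrays are kept. The RC against DC median does not use the CC arrays. It was 0.10 with the covariate (70 above 0), 0.11 with quantile normalization (68 above 0) and 0.065 with the 3 narrowest arrays (RC 3, DC 2 and DC 4) left out (60 above 0).

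**Figure D3:**
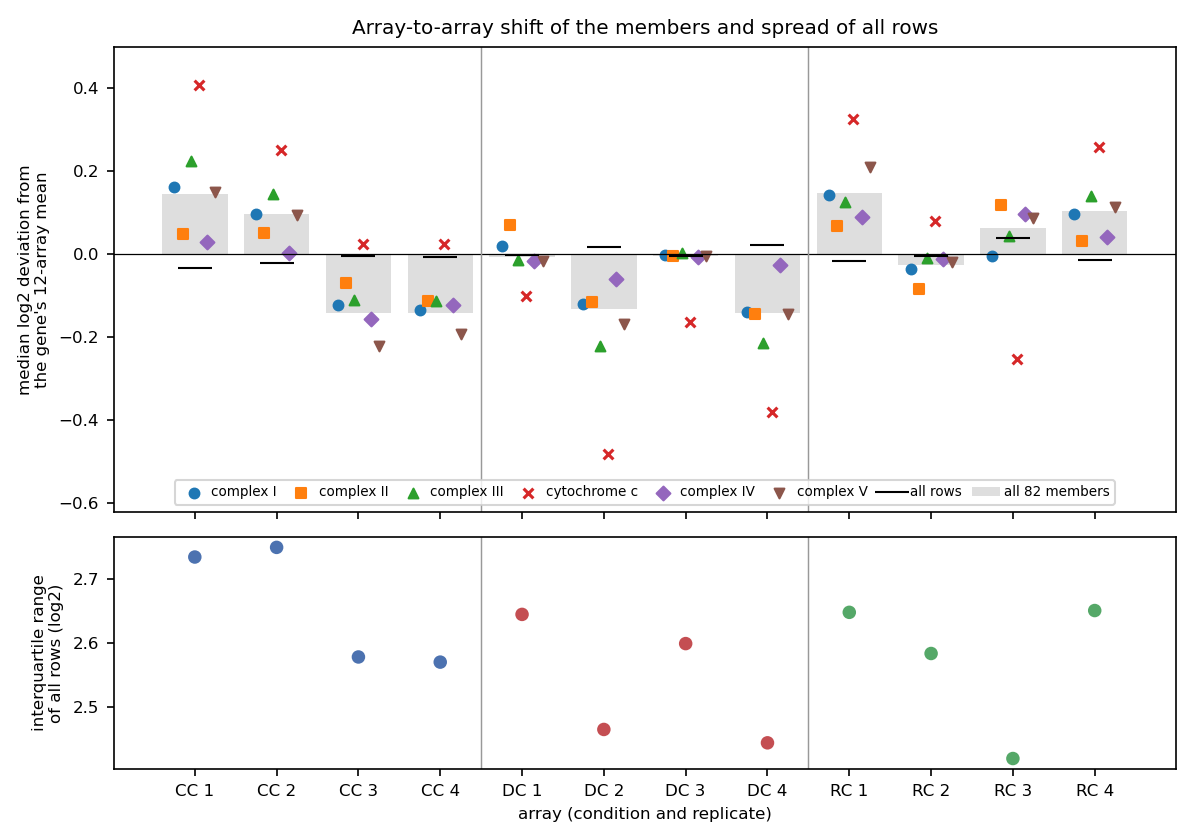
Upper panel: median log2 deviation of members from their own 12-array mean on each array, for all 82 members (grey bars), for each complex (symbols) and for all rows (black lines). Lower panel: interquartile range of all rows on the same arrays. Within CC and within DC the 2 arrays of wider range have the higher members; RC 3 has the narrowest range, 2.42, with members at 0.064, and CC 3 and CC 4, at 2.58 and 2.57, have members at -0.14.

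Complex I takes electrons from NADH, and its subunit Ndufv3 gave the smallest adjusted p of any member in DC against CC. Ndufv3 is a small accessory subunit of the NADH-oxidising end. Its values were 9.44, 9.57, 9.32 and 9.29 on the CC arrays, 9.98, 9.97, 10.02 and 9.82 on the DC arrays, and 9.71, 9.58, 9.71 and 9.70 on the RC arrays. All DC arrays lay above all RC arrays, and all RC arrays above all CC arrays. Ndufv3 was 1.46-fold higher in DC than in CC (0.55 ± 0.07 log2, SE, adjusted p = 0.000656). The difference was -0.28 ± 0.07 from DC to RC (adjusted p = 0.0805) and 0.27 ± 0.07 from CC to RC (adjusted p = 0.15), and neither was called; without RC 3 the DC to RC difference was called (-0.29, adjusted p = 0.0449). The DC call was made under each of 23 alternative settings, with differences of 0.45 to 0.65.

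Ndufa4 was named as a complex I subunit and has since been assigned to complex IV; it is counted here by its symbol. Its values were 10.02, 10.03, 9.46 and 9.53 in CC, 9.37, 9.21, 9.17 and 9.39 in DC, and 10.29, 9.98, 9.98 and 10.19 in RC. All DC arrays lay below all other arrays, the RC arrays were close together, and CC fell into 2 high and 2 low arrays. RC exceeded DC 1.77-fold (0.83 ± 0.13 log2, adjusted p = 0.00476), the largest difference among the members in any of the 3 comparisons. This call was made under each of the 23 settings (0.77 to 0.91), and without RC 3 the difference was 0.87. DC against CC gave -0.48 ± 0.13 (adjusted p = 0.0536), which was not called. It was called under 7 of the 23 settings, among them without RC 3 (adjusted p = 0.0409), and the difference ran from -0.74 to -0.21 over the settings (adjusted p 0.00505 to 0.535). RC against CC gave 0.35 ± 0.13 (adjusted p = 0.404).

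**Figure D4:**
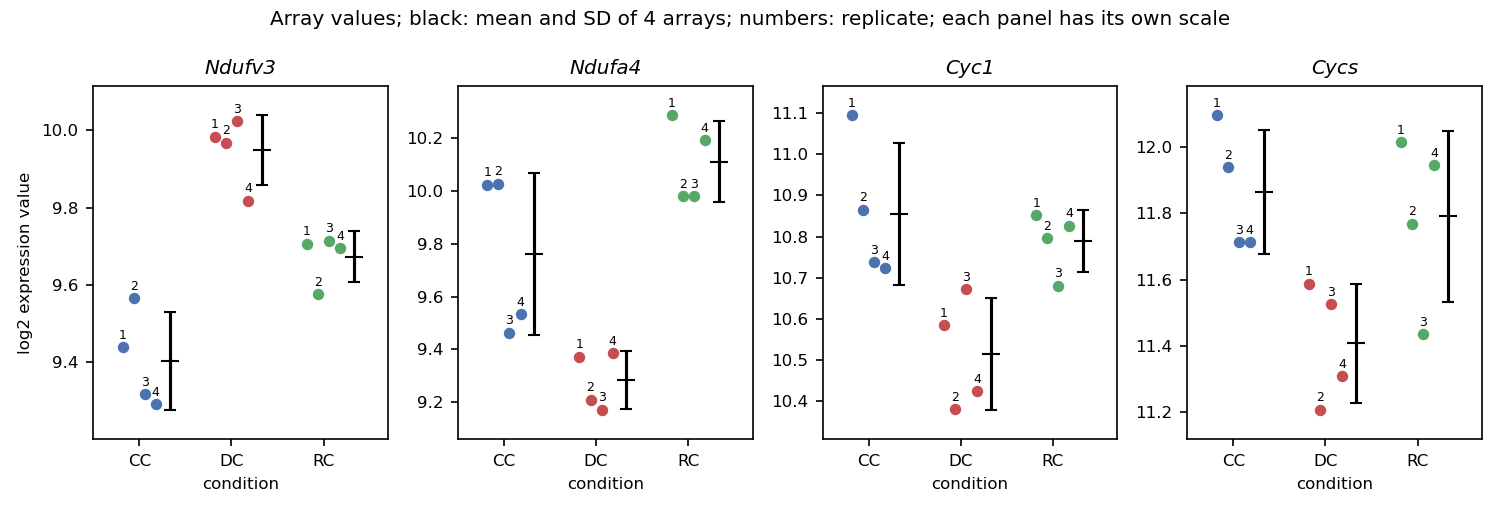
Log2 values of Ndufv3, Ndufa4, Cyc1 and Cycs on the 4 arrays of each condition (points, numbered by replicate), with mean and SD in black; each panel has its own scale. Ndufv3 is highest in DC on every array, and Ndufa4, Cyc1 and Cycs are lower in DC than in CC on every array.

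The other complex I members stayed closer to 0. The median over the 34 was -0.073 in DC against CC, with 26 below 0, and 0.11 in RC against DC, with 32 above 0. Ndufs1, the largest iron-sulphur subunit, had means of 9.68 ± 0.16 (SD, n = 4) in CC, 9.56 ± 0.20 in DC and 9.76 ± 0.16 in RC, within the spread between arrays. Ndufv1, which binds NADH, was 10.52 ± 0.13, 10.31 ± 0.15 and 10.42 ± 0.06, with a difference of -0.21 ± 0.09 in DC against CC (adjusted p = 0.199). The lowest complex I difference in RC against CC was that of the accessory subunit Ndufb10 (-0.13 ± 0.07, adjusted p = 0.623). Of genes picked after their values were seen, Ndufa3 had RC against DC 0.21 ± 0.06 (adjusted p = 0.0742), Ndufb6 0.39 ± 0.12 (0.125) and Ndufs4 0.37 ± 0.13 (0.202). Without RC 3, Ndufb6 gave 0.47 (adjusted p = 0.023) and Ndufs4 0.45 (adjusted p = 0.0465).

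Complex II, succinate dehydrogenase, joins the citrate cycle to the chain, and its 4 subunits gave no call in the 3 comparisons and 0 unadjusted p under 0.05. Of all rows, 20.6% (DC against CC), 11.8% (RC against DC) and 9.06% (RC against CC) had an unadjusted p under 0.05. The shares of all rows called by limma were 6.64%, 2.63% and 0.796%. The catalytic flavoprotein Sdha was 11.31 ± 0.10 in CC, 11.24 ± 0.09 in DC and 11.30 ± 0.03 after return (SD, n = 4). The iron-sulphur subunit Sdhb had the lowest difference of the complex in DC against CC (-0.13 ± 0.10 SE, adjusted p = 0.446). The membrane anchor Sdhd had the highest in RC against DC (0.16 ± 0.10, adjusted p = 0.623), and the anchor Sdhc the highest in DC against CC (0.01 ± 0.08, adjusted p = 0.941). The 95% interval was within 0.5 log2 units of 0 for all 4 in each of the 3 comparisons.

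Complex III had the lowest median difference in DC against CC of the multi-gene complexes, -0.15, with 8 of 9 members below 0. Of the 7112 brightest rows, 4385 lay below 0. The complex III median depends on the CC arrays. The median deviation of its members from their own means over all arrays was 0.23 and 0.15 on CC 1 and CC 2. On CC 3 and CC 4 it was -0.11 and -0.11. On the DC arrays it ran from -0.22 to 0.0033, with a mean of -0.11. Cyc1, which carries the haem that reduces cytochrome c, was called. Its values were 11.09, 10.87, 10.74 and 10.72 in CC, 10.58, 10.38, 10.67 and 10.42 in DC, and 10.85, 10.80, 10.68 and 10.83 in RC. The DC arrays lay below all CC and RC arrays, with DC 3 nearest to them. Cyc1 was 1.27-fold lower in DC (-0.34 ± 0.09 log2, adjusted p = 0.0472), and RC against DC was 0.27 ± 0.09 (adjusted p = 0.2). The adjusted p is near the threshold: Cyc1 was called under 8 of 23 settings, among them without RC 3 (adjusted p = 0.0327), with adjusted p of 0.0261 to 0.413, and its difference stayed below 0 in all, from -0.47 to -0.21.

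The ubiquinone-binding subunit Uqcrb had values of 11.80, 11.41, 11.41 and 11.31 in CC, 11.21, 11.02, 11.52 and 11.06 in DC, and 11.88, 11.60, 11.41 and 11.65 in RC. DC 3 overlapped the other conditions, and the remaining DC arrays lay below them. RC against DC gave 0.43 ± 0.14 (adjusted p = 0.157), the highest in complex III, which without RC 3 was 0.51 (adjusted p = 0.0435). Uqcrc1, a core protein of the matrix side, gave -0.22 ± 0.10 in DC against CC (adjusted p = 0.254) and 0.23 ± 0.10 in RC against DC (adjusted p = 0.398). Uqcrq, a small accessory subunit, lay at the opposite end of the complex, with 0.08 ± 0.12 and -0.0012 ± 0.12.

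Cytochrome c, the mobile carrier between complexes III and IV, is encoded in somatic cells by Cycs. Its values were 12.10, 11.94, 11.71 and 11.71 in CC, 11.59, 11.21, 11.53 and 11.31 in DC, and 12.01, 11.77, 11.44 and 11.95 in RC. All CC arrays lay above all DC arrays, while RC 3 lay among the DC arrays and the other RC arrays above them. DC was 1.37-fold lower than CC (-0.46 ± 0.14 log2, adjusted p = 0.069), which was not called. RC against DC gave 0.38 ± 0.14 (adjusted p = 0.23); without RC 3 both were called, at -0.46 (adjusted p = 0.0201) and 0.50 (adjusted p = 0.0235). Over the 23 settings DC against CC was called in 5, with differences of -0.61 to -0.22 and adjusted p of 0.0188 to 0.57, and RC against DC in 3. Cycs has 3 rows on the array. A second row gave -0.53 ± 0.15 for DC against CC (adjusted p = 0.0664) and the remaining row, with a mean of 7.21, gave -0.04 ± 0.12. Mouse Cycs has processed copies elsewhere in the genome, and the table does not say which row measures the gene itself, so its level and size of difference are uncertain.

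Complex IV, cytochrome c oxidase, had 10 of its 17 members above 0 in DC against CC. Its median was 0.027, beside 0.045 over all rows, while complexes I, III and V had medians below 0. These medians depend on the CC arrays. The median deviation of complex IV from the 12-array means was 0.030 and 0.0031 on CC 1 and CC 2. On CC 3 and CC 4 it was -0.16 and -0.12, and the DC arrays lay from -0.059 to -0.0052. Complexes I, III and V were also higher on CC 1 and CC 2 than on CC 3 and CC 4. The 10 complex IV members above 0 included the tissue-restricted isoforms Cox4i2, Cox6b2, Cox7a1, Cox7b2, Cox8b and Cox8c, with low CC means of 5.98 to 8.24. Ndufa4, at -0.48, was counted with complex I. The difference between complexes was not tested. By limma 0 of the 17 were called in the 3 comparisons, beside 6.64%, 2.63% and 0.796% of all rows. The unadjusted p was under 0.05 in 1 (DC against CC), 6 (RC against DC) and 3 (RC against CC). These are shares of 5.88%, 35.3% and 17.6%, beside 20.6%, 11.8% and 9.06% of all rows and 31.9%, 21.8% and 18.3% of the brightest rows. Cox4i1, a core nuclear subunit, was 10.46 ± 0.20 in CC, 10.33 ± 0.13 in DC and 10.53 ± 0.05 after return (SD, n = 4). Its low-oxygen and lung isoform Cox4i2 was 7.96 ± 0.10, 8.11 ± 0.14 and 8.04 ± 0.13, with a DC against CC difference of 0.15 ± 0.09 SE (adjusted p = 0.34). Cox5b had 11.52 ± 0.08, 11.50 ± 0.09 and 11.66 ± 0.12. In RC against DC the highest difference was that of Cox5a, another nuclear subunit (0.34 ± 0.14, adjusted p = 0.336), and it was also the highest of all members in RC against CC (0.37 ± 0.14, adjusted p = 0.396). Its values were 10.47, 10.63, 9.91 and 10.20 in CC, 10.37, 10.36, 10.47 and 10.12 in DC, and 10.77, 10.57, 10.51 and 10.84 in RC, so CC 2 overlapped RC and CC 3 was the lowest array.

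The isoform pairs of complex IV lay partly on opposite sides of 0 in RC against DC. The ubiquitous isoforms Cox4i1 (0.20 ± 0.10), Cox6a1 (0.20 ± 0.08), Cox6b1 (0.25 ± 0.11), Cox7a2 (0.18 ± 0.12) and Cox8a (0.10 ± 0.07) lay above 0. The tissue-restricted Cox4i2 (-0.07 ± 0.09), Cox6b2 (-0.12 ± 0.12), Cox7a1 (-0.07 ± 0.08), Cox8b (-0.12 ± 0.06) and Cox8c (-0.14 ± 0.12) lay below 0, while the muscle isoform Cox6a2 (0.15 ± 0.07) was above it. None of these was called, and the difference between isoforms was not tested. Of the 10 members below 0 in RC against DC, 7 belonged to complex IV: these 5, Cox7b2 and Cox7a2l. Cox8c had the highest difference of the complex in DC against CC (0.25 ± 0.12, adjusted p = 0.248). Cox6b2, Cox7b2, Cox8b and Cox8c lay below the median of all values, where a row's value was not set against background. The tissue-restricted isoforms below 0 in RC against DC had CC means of 5.98 to 8.24. Cox6a2 had 9.93, and the ubiquitous isoforms named had 10.46 to 12.06. The split thus followed level as well as isoform type, and neither was tested. In RC against DC, 45.2% of all rows and 58.1% of the brightest rows lay above 0.

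Cox7a2l, which links complexes III and IV in supercomplexes, was picked here after its values were seen, as a member without overlap. It had values from 8.90 to 9.18 in CC, 9.36, 9.26, 9.21 and 9.24 in DC, and 9.20, 9.07, 9.24 and 9.19 in RC. Every DC array lay above every CC array, and RC overlapped both. The DC against CC difference was 0.23 ± 0.07 (adjusted p = 0.0831), and a second, dimmer row of the gene gave 0.13 ± 0.10.

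Complex V had 0 members called by limma in the 3 comparisons, beside 6.64%, 2.63% and 0.796% of all rows. Its unadjusted p was under 0.05 in 2 (DC against CC), 6 (RC against DC) and 4 (RC against CC). These are shares of 11.8%, 35.3% and 23.5%, beside 20.6%, 11.8% and 9.06% of all rows and 31.9%, 21.8% and 18.3% of the brightest rows. In RC against DC all 17 differences lay above 0, with a median of 0.19 and a range of 0.012 to 0.40. The stator subunit b, Atp5pb, was the highest (0.40 ± 0.15, adjusted p = 0.275; without RC 3, 0.51, adjusted p = 0.0455). A second Atp5pb row gave 0.17 ± 0.10, with which it would not be the highest; which row measures the gene itself is not stated for any member with several rows. Atp5b, the catalytic beta subunit, was 12.94 ± 0.13 in CC, 12.77 ± 0.09 in DC and 12.93 ± 0.04 after return (SD, n = 4), with -0.16 ± 0.07 SE in DC against CC (adjusted p = 0.233) and 0.16 ± 0.07 in RC against DC (adjusted p = 0.423). The epsilon subunit Atp5e had the lowest difference of the complex in RC against CC (-0.03 ± 0.16, adjusted p = 0.953), and the small membrane subunit Atp5mpl the highest (0.24 ± 0.10, adjusted p = 0.43). Atp5md, another small membrane subunit, was the lowest in DC against CC (-0.17 ± 0.15, adjusted p = 0.502).

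Atp5g1, Atp5g2 and Atp5g3 encode the same mature c subunit of the rotor ring from separate genes. Their DC against CC differences were 0.0026 ± 0.11 for Atp5g1, 0.17 ± 0.07 for Atp5g2 and -0.06 ± 0.11 for Atp5g3. In RC against DC they were 0.20 ± 0.11, 0.01 ± 0.07 and 0.29 ± 0.11, so that Atp5g2, the highest of the complex in DC against CC, was the lowest in RC against DC. None was called. Atp5g2 has 3 rows that differ by less than 0.1 in each comparison. Over all 17 members with several rows, the rows of a gene differed by less than 0.1 in 15 genes (DC against CC), 14 genes (RC against DC) and 16 genes (RC against CC).

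Genes that build or feed the chain were set beside the members. The assembly factor lists of complexes I (16 measured), II (4), III (6), IV (19) and V with its inhibitor Atpif1 (6) had 0 genes called by limma in the 3 comparisons. The complex I list also holds Ndufab1, an accessory subunit whose symbol the member rule does not take. Of all rows, 6.64% (DC against CC), 2.63% (RC against DC) and 0.796% (RC against CC) were called. The counts of these lists at an unadjusted p under 0.05 were 5, 2, 3, 6 and 1 in DC against CC and 4, 0, 0, 3 and 0 in RC against DC. Of all rows, 20.6% and 11.8% passed in these comparisons, and of the brightest rows 31.9% and 21.8%. The medians of the 5 lists in DC against CC were -0.075, 0.022, -0.027, -0.025 and -0.12, and in RC against DC 0.041, -0.0074, 0.020, 0.027 and 0.11. The 7 measured genes of other routes into the ubiquinone pool, and ND3 and COX2, the 2 measured subunits of the mitochondrial genome, had 0 called genes as well. ND3 was 12.94 ± 0.15 in CC, 12.78 ± 0.18 in DC and 12.92 ± 0.22 after return (SD, n = 4). Of 12 ubiquinone synthesis genes, Coq9 was called in DC against CC (0.27 ± 0.07, adjusted p = 0.0458), higher in DC, and the list's median was -0.015.

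The citrate cycle, which supplies NADH and succinate, had medians of -0.093 in DC against CC, with 10 of 12 genes below 0, and 0.16 in RC against DC, with 10 above 0. Idh3a, the catalytic subunit of the NAD-linked isocitrate dehydrogenase, was the only one of the 12 called in the 3 comparisons. It was 10.38 ± 0.17 in CC, 10.22 ± 0.15 in DC and 10.77 ± 0.07 after return (SD, n = 4), with an RC against DC difference of 0.55 ± 0.09 SE (adjusted p = 0.00633). In that comparison 2.63% of all rows were called.

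The list of 8 measured low-oxygen genes was chosen with earlier results of these data known, so its differences are no test of the members. Of the 8, 4 were called higher in DC than in CC, where 6.64% of all rows were called. They were Bnip3, a mitophagy receptor (2.46 ± 0.20), Pdk1, the kinase that restrains pyruvate dehydrogenase (2.32 ± 0.23), Mgarp (2.00 ± 0.29) and Fam162a (1.73 ± 0.21). The same 4 were called lower in RC than in DC, by -1.52 ± 0.20, -1.43 ± 0.23, -1.77 ± 0.29 and -1.25 ± 0.21, where 2.63% of all rows were called. Ndufa4l2, a relative of Ndufa4 left out of the members, had 7.33 ± 0.08, 7.49 ± 0.17 and 7.41 ± 0.29 (SD, n = 4) and was not called (DC against CC 0.16 ± 0.13 SE, adjusted p = 0.445). Lonp1, the matrix protease, had a difference of 0.58 ± 0.17 (adjusted p = 0.0719). The largest member difference in DC against CC, that of Ndufv3, was 0.55.

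**Figure D5:**
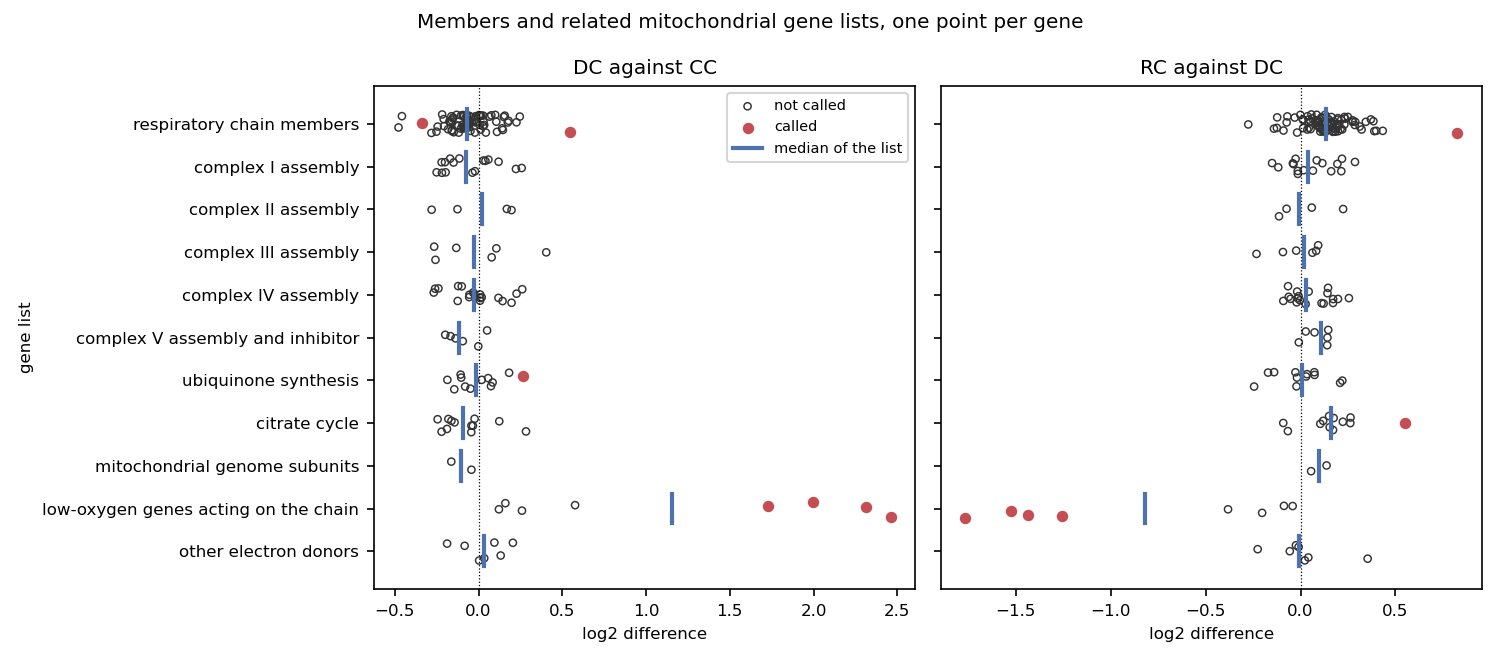
Log2 differences of the 82 members and of the genes of 10 related lists in DC against CC (left) and RC against DC (right), one point per gene, with the median of each list (blue line) and called genes filled. The low-oxygen list, chosen with earlier results of these data known, spans 0.12 to 2.46 in DC against CC, while the members span -0.48 to 0.55.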

How the data were processed

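Total RNA of Min6 cells (500 ng for each of 12 arrays, 4 arrays per condition) had been labelled with biotin. It was hybridised to Affymetrix Mouse Gene 1.0 ST arrays, per the labels' protocols and the platform annotation. Whether the 4 arrays of a condition came from separate cultures is not stated in the labels. The deposited table holds the authors' log2 expression values of 35556 rows on 12 arrays (range 3.69 to 14.47); that they are log2 was read from the range. How probes were summarised and arrays normalized, and the build: not given in the sources used here. Detection calls were not used here, so precision is limited by how many arrays there are. Groups and replicate numbers came from sample titles.

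Of the rows, 21789 carry 1 symbol, 1621 several and 12146 none in the platform annotation. Members with several rows (17) kept the row with the highest mean, and all 82 matched a RefSeq gene by identifier, with 0 symbols changed. All rows and arrays entered a single linear model, 1 mean for each condition, in limma 3.58.1 in R 4.3.3 (lmFit, contrasts.fit, eBayes; two-sided; 9 residual degrees of freedom), with Benjamini-Hochberg adjustment over 35556 rows per comparison and a threshold of 0.05; the script was tested on simulated data. Named members are those called, the highest and lowest of each complex and comparison, core subunits and isoform groups; of related lists, called genes; others were picked after their values were seen. Members and lists were chosen with earlier results of these data known. Alternatives were other normalization, centring, filters, weights, covariates, blocks and left-out arrays. Motifs and promoters came from RefSeq tables of GRCm38.p6.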

Additional observations from a re-analysis of the deposited data

Results flagged for a closer look

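Of 105 groups of 4 arrays examined (35 named members in 3 conditions), 3 held an array set far from the other 3, by a gap to its nearest neighbour that exceeded Dixon's 95% limit as a share of the group's whole range. Chance marks about 1 in 20 groups. Cox8b, the muscle isoform of complex IV subunit 8, was high on RC 3 (7.77, beside 7.59 to 7.61; 0.872 of the range). Ndufs1, the largest iron-sulphur subunit of complex I, was high on DC 1 (9.85, beside 9.42 to 9.49; 0.839 of the range). Ndufv3 was low on RC 2 (9.58, beside 9.70 to 9.71; 0.863 of the range), which still lay above every CC array. The causes were not tested.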

How the results depend on the processing

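Ndufv3 in DC against CC and Ndufa4 in RC against DC were called under each of 23 alternatives, 12 of which left out 1 array; Cyc1 was called in 8. The 2 called members of DC against CC (6.64% of rows) became 1 with the 3 arrays of narrowest spread left out (5.54%). Leaving out CC 1 and CC 2 (2.79%) and median centring (6.19%) also gave 1. There were 4 with dim rows left out (1 higher and 3 lower, 14.6%). The interquartile range as covariate gave 4, all higher (6.91%). Quantile normalization gave 5 (2 higher and 3 lower, 7.25%). There were 6 with array weights (4 higher and 2 lower, 13.6%). Without CC 3 and CC 4 there were also 6 (1 higher and 5 lower, 4.41%). Leaving out 1 array gave 1 to 4. The 1 of RC against DC (2.63% of rows) became 2 without CC 1 and CC 2 (2.09%), both higher. It became 2, with 1 higher and 1 lower, without dim rows (5.94%) and with quantile normalization (3.47%). The interquartile range gave 7 (6 higher and 1 lower, 4.89%) and array weights 22 (18 higher and 4 lower). Leaving out 1 array gave 1 to 8, the 8 without RC 3 (7 higher and 1 lower, 8.13%). The 0 of RC against CC (0.796% of rows) became 1 with quantile normalization (0.877%), 8 with the interquartile range (1.79%) and 23 with array weights, all higher. Rows called under array weights were 13.6% in DC against CC, 18% in RC against DC and 7.93% in RC against CC; weights were 0.161 for RC 3, 0.627 and 0.539 for CC 1 and CC 2, and 2.65 and 3.01 for CC 3 and CC 4. The cause of these changes was not tested.

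The median of the members in DC against CC was 0.054 without CC 1 and CC 2, 0.048 with the interquartile range, 0.015 without the 3 narrowest arrays, 0.0027 with quantile normalization, -0.0045 with array weights and -0.19 without CC 3 and CC 4, and from -0.11 to -0.0036 with 1 array left out; in RC against CC it was 0.22 without CC 1 and CC 2 and -0.032 without CC 3 and CC 4. Leaving out these CC pairs and the setting without the 3 narrowest arrays were chosen after seeing the data. In RC against DC it lay between 0.065 and 0.17 under every setting run. Median centring changed the DC against CC median over all rows from 0.045 to -0.0069 and that of the members to -0.12.

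The replicate number as a block left 2 members called in DC against CC (Ndufv3, and Ndufa4 in place of Cyc1) and 1 in RC against DC. Deviations of same-numbered arrays correlated at -0.36 to 0.47. This cannot settle whether same-numbered arrays share a culture or batch, because arrays within a condition also differed in spread. Dim rows could not be set against background.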
